A study of Mus musculus with 24 samples.

Results

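Genes of lipid droplets and of very-low-density lipoprotein (VLDL) assembly were followed in mouse liver: Plin2, Plin4, Plin5, Cidea, Cideb, Cidec, Pnpla2, G0s2, Mttp and Cd36. They were taken by symbol, and all 10 were found among the 23411 genes of the count table. Poly(A) RNA from the livers of 24 male mice was sequenced, with 3 mice in each of 8 groups. The mice were 16 to 20 weeks old and of a mixed 129/Sv plus C57BL/6 background. WT livers were set against livers of exon swap a7HMZ mice (written α7HMZ here), which make only the P2 form of the nuclear receptor HNF4α in place of the adult liver's P1 form. In each genotype, mice with free access to chow were killed at 10:30, at 13:30 or, after lights-off, at 20:30, and a further group was killed at 10:30 after a 12-h fast. The swap is present in the whole body from conception, so its effect in liver cells cannot be told apart from that in other tissues.

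A lipid droplet is a store of triglyceride and cholesterol ester under a coat of proteins, among them the perilipins, which control access of lipases to the core. CIDE proteins sit where droplets touch and pass lipid from small droplets to large ones, and CIDEB also takes part in loading lipid onto VLDL particles. Hepatocytes meet adipose fatty acids in a fast: part is burned, part is stored in droplets, and part leaves the liver as VLDL triglyceride. Many droplet genes are known targets of PPARα, the fatty acid receptor that is active in fasting, and apolipoprotein and Mttp genes are known targets of HNF4α.

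In WT liver, fasting raised 6 of the 9 members that could be tested, beside 12.0% of all genes tested, with Cidec and G0s2 changing the most. In α7HMZ liver, G0s2, Plin2, Plin5 and Pnpla2 also rose with fasting, but for Cidec and Plin4 no change passed the test. Mttp rose there as well, though it was not called in WT liver and its responses were not shown to differ. Cideb only just passed as lower after fasting (adjusted p = 0.0487). Flow cell and fasting cannot be told apart in α7HMZ liver. Cidec was the member whose fasting response was called different between the genotypes in a direct test. That call was lost when any of 4 libraries was left out, and the test involves both flow cells. Cideb was 3.94 to 5.27 times lower in α7HMZ than in WT liver in every state measured, with most of its exon bases shared with a gene on the opposite strand, whereas Cd36 was higher in every state.

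Values are given as CPM, counts per 1000000 counts of library size after scaling by TMM factors (a correction for composition), and a change is given as a log2 fold change from edgeR with its SE. An adjusted p (Benjamini-Hochberg over all genes tested) under 0.05 is what passing the test means. Libraries held 8545959 to 28445590 counts, with a median of 18875060. In fed α7HMZ liver at 10:30, replicate 1 had 50.83% of its counts on the ribosomal RNA gene Rn45s, against 0.06% to 3.76% in the other 23 libraries. Of the fed livers at 20:30, WT replicate 2 and α7HMZ replicates 1 and 3 carried Krt19, a bile duct gene, at 18.3, 14.2 and 12.5 CPM, and Ctrb1, a pancreatic gene, at 5.0, 1.87 and 3.32 CPM. The 10 pancreatic acinar markers, Ctrb1 among them, summed to 61.5, 22.3 and 27.0 CPM in these livers. At 13:30 that sum was 35.2 to 49.5 CPM in fed WT and 31.4 to 38.2 CPM in fed α7HMZ livers. Prss2, Pnlip and Try4 were at 0 in every α7HMZ liver at 20:30. Whether pancreatic RNA was present was not tested. Krt19 was also at 7.07 and 4.63 CPM in fasted WT replicates 1 and 2, against at most 4.32 CPM elsewhere. Counts over the whole of Hnf4a do not separate its 2 forms and so do not check the genotype. Hnf4a itself was at 719 ± 62.2 CPM (SD, n = 3) in fed WT liver at 10:30, 1046 ± 63.7 at 13:30, 802 ± 198 at 20:30 and 814 ± 5.24 after fasting. The α7HMZ means were 987 ± 170.1, 912 ± 109.7, 1132 ± 148 and 1241 ± 191 in the same order. The libraries ran on flow cells 375 and 377. WT fed at 10:30, WT fasted and α7HMZ fed at 10:30 were on 375, and all others on 377. Hence fasting in WT and each fed comparison of genotypes at a single time lie within a flow cell. In α7HMZ fasting, and in the comparison of fasted genotypes, flow cell and group cannot be told apart. A test of genotype by time sets 10:30 (375) against later times (377), so there hour and flow cell cannot be told apart.

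Promoter windows of 9 members, 11 windows in all, were read from RefSeq (GRCm38.p6), each from 250 bases before to 50 bases after a gene's start. Those of Plin2 and Cideb are shown here because Plin2 has the highest level per kilobase of exon of the 10 genes and the values of Cideb differ between genotypes in every state. Those values do not separate Cideb from Nop9, a gene on the opposite strand that shares 76.34% of the Cideb exon bases. Each line starts at the end of the window far from the gene and runs to the first bases of the gene in GENCODE, so that neither is the whole window. Capitals mark matches to motifs searched on both strands. In the Plin2 line they are a DR1-like match (2 copies of AGGTCA with 1 base between them, at most 2 mismatches over the 12 letters), the kind of element that PPARα and HNF4α can both bind, and CACGTG, an E-box. In the Cideb line they are matches to CAAAGTCCA, a core preferred by HNF4α, with at most 1 mismatch. None of the marked matches overlaps another.
Plin2, chr4:86670058-86670309, minus strand: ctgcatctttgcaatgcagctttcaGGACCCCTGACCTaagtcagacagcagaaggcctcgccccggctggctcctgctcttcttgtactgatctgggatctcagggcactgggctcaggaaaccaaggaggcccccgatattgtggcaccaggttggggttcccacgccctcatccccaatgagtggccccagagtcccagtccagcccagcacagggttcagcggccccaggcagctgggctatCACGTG
Cideb, chr14:55758452-55758674, minus strand: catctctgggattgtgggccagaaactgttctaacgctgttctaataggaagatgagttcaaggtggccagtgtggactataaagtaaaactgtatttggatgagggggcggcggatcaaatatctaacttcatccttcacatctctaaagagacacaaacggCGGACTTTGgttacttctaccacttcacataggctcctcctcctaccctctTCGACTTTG
The window of Cideb held 3 matches to CAAAGTCCA, the 2 shown and 1 at bases 251 to 259 of the window, and it was the only member with any. Of 32851 RefSeq promoter windows of this length, 8.47% held at least 1 such match. The DR1-like match was found in the windows of Plin2 and Cd36, and in 3.86% of all windows. CACGTG was found in Plin2 alone among the members, and in 7.15% of all windows. The mismatch limits were set after the members' windows had been read, so these matches are a description only.

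Per kilobase of exon, and over all 24 libraries, the order of mean levels was Plin2 (182 CPM per kb), G0s2 (122), Cideb (104), Mttp (47.6), Plin5 (47.4), Pnpla2 (26.5), Cd36 (8.30), Cidec (2.20), Plin4 (2.12) and Cidea (0.0322). Mttp and Plin5 lay too close to be ordered, as did Cidec and Plin4. Cidea, a CIDE protein of brown fat, was at the limit of detection in liver. Its counts reached at most 3 in a library and were 0 in 14 of the 24. A count of 0 allows up to 3 counts, which is 0.101 to 0.385 CPM depending on the library. Cidea did not pass the filter on low counts, so the other 9 members, each with 19 or more counts in every library, make up those tested below. In whole liver, fewer cells of a type and less RNA per cell cannot be told apart. The 10 hepatocyte markers summed to between 91688 and 181524 CPM in every library. In fasted livers the sum was 149930 to 166815 CPM in WT and 91688 to 107354 CPM in α7HMZ, with no overlap. Of these markers 6 were called lower in α7HMZ liver in the fed average (median -0.29) and 3 in fasted liver (median -0.41). Their part in the differences of the members was not tested.

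**Figure D1:**
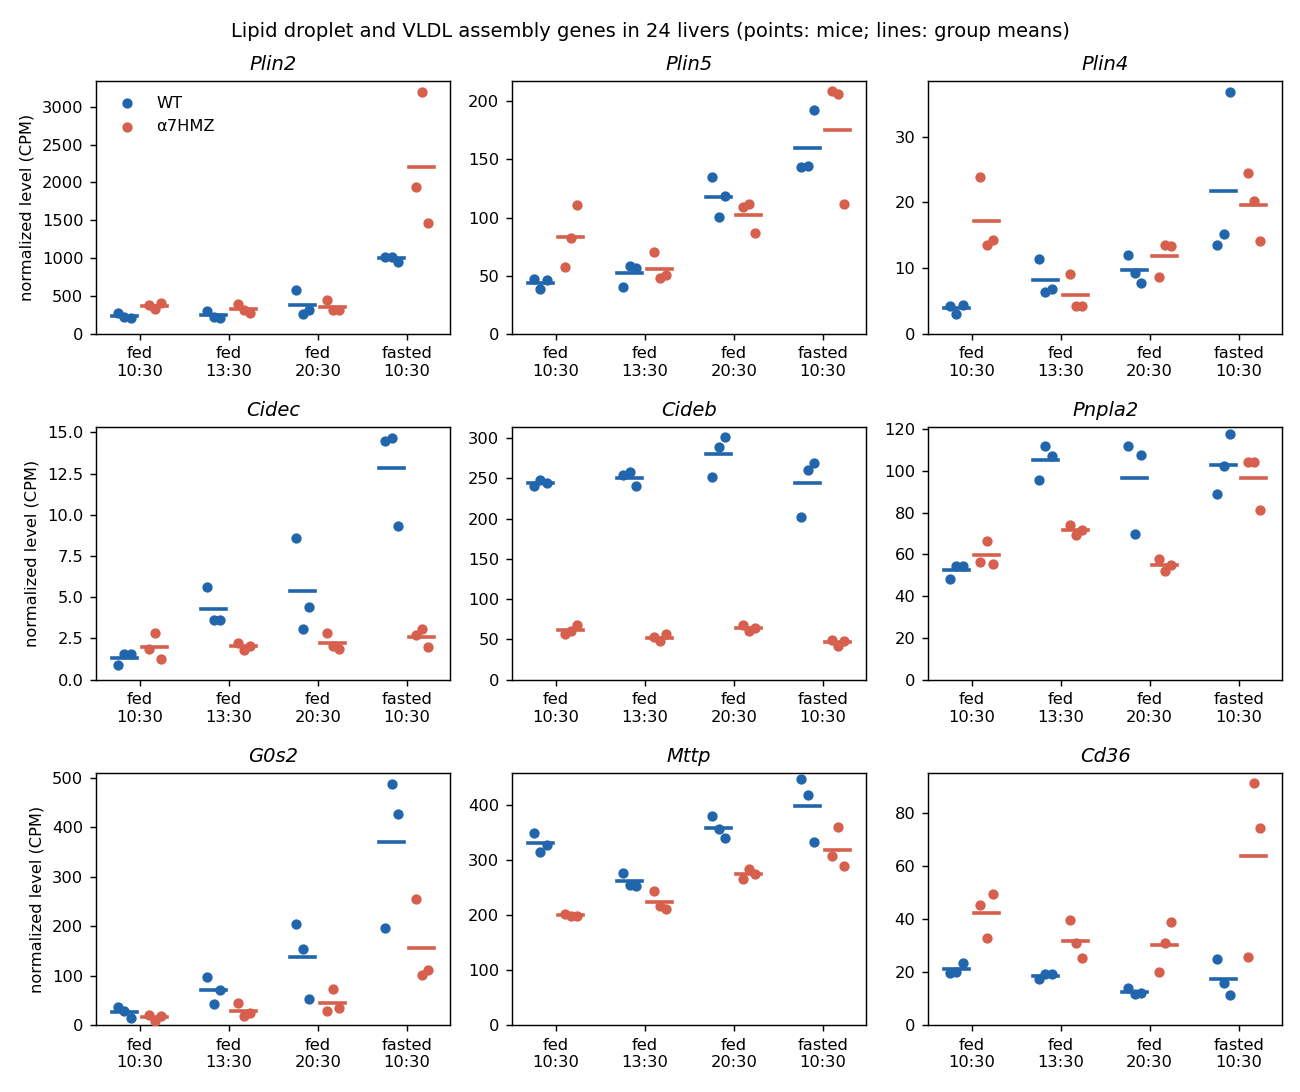
Normalized level (CPM, linear axis from 0) of the 9 tested members in each of the 24 livers, by feeding state and time, with WT in blue and α7HMZ in red; points are mice and lines are means of 3. Cidec rose to 9.34 to 14.7 CPM in fasted WT livers and stayed at 2.00 to 3.05 CPM in fasted α7HMZ livers, and Cideb showed no overlap between genotypes.

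The fasting comparison asks which of these genes respond to a 12-h fast in each genotype. In WT liver, 6 of the 9 tested members were higher after fasting and 0 were lower. Over all 13103 genes tested, 12.0% were higher and 10.6% lower. No member was lower at an unadjusted p under 0.05 either, nor by DESeq2. In α7HMZ liver, 5 members were higher and 1 was lower, against 6.68% and 5.9% of all genes. The median log2 change of the 9 members was 1.87 in WT and 0.68 in α7HMZ liver, beside 0.004 and -0.009 over all genes. Markers of other liver cells moved too. In WT liver fasting lowered 7 of 10 endothelial markers (median -0.92), 4 of 10 stellate cell markers (-0.36) and 3 of 10 macrophage markers (-1.21). The endothelial sum went from 450.1 to 534 CPM in fed to 221 to 352 CPM in fasted WT livers at 10:30, and from 336 to 429 to 376 to 439 CPM in α7HMZ livers. The part of these cells in the members' changes was not tested.

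Plin2, at chr4:86648386-86670060 on the minus strand, encodes the main perilipin of hepatocyte droplets. In fed WT livers at 10:30 it read 278, 218 and 209 CPM, and in fasted WT livers 1017, 1016 and 955 CPM. The groups were far apart, and the increase was 2.09 ± 0.23 (adjusted p = 5.26e-05). Fed α7HMZ livers at 10:30 were at 377, 324 and 411 CPM, and fasted α7HMZ livers at 1942, 3191 and 1470 CPM. Plin2 thus rose in α7HMZ liver too, by 2.57 ± 0.23 (adjusted p = 2e-05), to the highest mean level per kilobase (627 CPM per kb) of any member in any group. Each fasted α7HMZ liver was above every fasted WT liver, and the genotypes differed by 1.13 ± 0.22 in the fasted state (adjusted p = 0.00407). Without fasted α7HMZ replicate 2, the highest of the 3, that difference was 0.77 (adjusted p = 0.0107). The fasting response itself was not shown to differ between genotypes (0.48 ± 0.31, adjusted p = 0.479).

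Plin5 (chr17:56111601-56117596, minus strand) encodes the perilipin that tethers droplets to mitochondria in fatty-acid-burning tissues. Its level went from 46.8, 38.7 and 46.6 CPM in fed to 144, 144 and 192 CPM in fasted WT livers, with no overlap. That is an increase of 1.87 ± 0.25 (adjusted p = 0.000232). In α7HMZ liver the values were 57.2, 82.1 and 110.4 CPM fed and 209, 206 and 112 CPM fasted, so that the groups nearly met. The α7HMZ increase was 1.07 ± 0.25 (adjusted p = 0.0113). It did not pass when only those 2 groups were fitted (adjusted p = 0.0595), and the difference in response was -0.79 ± 0.35 (adjusted p = 0.315).

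Plin4, beside Plin5 at chr17:56100591-56109803 on the minus strand, encodes a perilipin with long amphipathic repeats that coats nascent droplets. Fed WT livers at 10:30 held 4.17, 3.08 and 4.31 CPM, and fasted WT livers 13.4, 15.1 and 36.8 CPM. All fasted values were above all fed ones, by 2.51 ± 0.38 (adjusted p = 0.000535). Fasted WT replicate 3 stood high, and without it the increase was 1.90 (adjusted p = 0.001). In α7HMZ livers Plin4 was already at 23.9, 13.5 and 14.3 CPM in the fed state and was at 24.4, 20.2 and 14.1 CPM after fasting. These groups overlapped, and the change was 0.19 ± 0.34 (adjusted p = 0.774). The difference in response, -2.31 ± 0.51, missed the threshold (adjusted p = 0.0983), although DESeq2 gave it an adjusted p of 0.000893. It also passed with no filter on low counts, with all 24 libraries in 1 fit or without WT fasted replicate 1 (adjusted p = 0.0354 to 0.0408).

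Cidec (chr6:113424634-113435760, minus strand) encodes the fat-specific CIDE protein that enlarges droplets, and its liver level is known to climb in fasting and in fatty liver. WT livers went from 0.86, 1.54 and 1.55 CPM fed to 14.5, 14.7 and 9.34 CPM fasted. The lowest fasted value was several times the highest fed value, and the fitted increase was 3.32 ± 0.32 (adjusted p = 1.83e-05), a 9.99-fold change. In α7HMZ livers the fed values were 1.84, 2.84 and 1.28 CPM and the fasted values 2.68, 3.05 and 2.00 CPM. They overlapped, with a difference of 0.42 ± 0.32 (adjusted p = 0.443). The test of genotype by fasting gave -2.90 ± 0.45 (adjusted p = 0.0255), and Cidec was the 1 member called there, among 0.0916% of all genes lower and 0.16% higher. No member was called higher in that test, 1 (Mttp) at an unadjusted p under 0.05 and 0 by DESeq2. This result involves both flow cells. It also lost its call (adjusted p = 0.061 to 0.0763) when WT fed replicate 1, WT fed replicate 2, α7HMZ fed replicate 2 or WT fasted replicate 2 was left out, with values from -3.05 to -2.56. In fasted livers, the difference of α7HMZ from WT was -2.31 ± 0.29 (adjusted p = 0.00015), and no values overlapped.

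Adipocyte RNA was looked at beside Cidec, Plin4 and Cd36, which fat cells also express. The 10 adipocyte markers summed to 6.10 to 7.20 CPM in fed WT livers at 10:30, 5.67 to 7.71 in fasted WT livers, 6.29 to 10.7 in fed α7HMZ livers at 10:30 and 4.56 to 4.77 in fasted α7HMZ livers. The WT groups overlapped in this sum, but most of it was 1 marker, Fabp4. It had 135, 109 and 71 counts in fed and 132, 86 and 112 counts in fasted WT livers. The sum therefore says little about the other markers, which follow. Lep and Retn were at 0 in all 4 of these groups, and Adipoq, the adiponectin gene, had at most 3 counts in any of their libraries. Cfd, the adipsin gene, had 20, 1 and 2 counts in the fasted WT livers and 0, 0 and 1 in the fed WT livers at 10:30. Plin1, the adipocyte perilipin, was at 0 in both fed groups and had 1 count in 1 liver of each fasted group. The highest sum of all 24, 15.2 CPM, was in fed α7HMZ replicate 1 at 20:30, with 221 counts of Fabp4, 108 of Cfd, 27 of Adipoq, 10 of Retn and 6 of Plin1. In that liver Plin4 was the lowest of its group (8.62 CPM) and Cidec the highest (2.82 CPM). The part of adipocyte RNA in these values was not tested.

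Cideb did not follow the fast in WT liver. It lies at chr14:55754050-55758458 on the minus strand and encodes the CIDE protein most abundant in hepatocytes. Fed WT livers at 10:30 read 241, 248 and 244 CPM and fasted WT livers 202, 260.2 and 269 CPM, a difference of 0.00 ± 0.12 (adjusted p = 0.997). In α7HMZ livers Cideb was at 57.0, 60.2 and 67.5 CPM fed and 49.4, 42.2 and 47.7 CPM fasted. This difference, -0.40 ± 0.12, only just passed (adjusted p = 0.0487). It did not pass under 5 of the other settings (adjusted p = 0.0528 to 0.105) or without any of 5 of the 6 libraries (0.0719 to 0.156).

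Pnpla2 (chr7:141455198-141460743, plus strand) encodes ATGL, the lipase that takes the first fatty acid off stored triglyceride. It rose from 48.1, 54.5 and 54.5 CPM to 88.7, 102 and 118 CPM in WT livers, by 0.98 ± 0.13 (adjusted p = 0.000257). In α7HMZ livers it rose from 56.6, 66.3 and 55.6 CPM to 104, 104 and 81.2 CPM, by 0.71 ± 0.13 (adjusted p = 0.00353). Neither genotype's fed and fasted values overlapped, and the responses were not shown to differ (-0.27 ± 0.19, adjusted p = 0.507).

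G0s2 (chr1:193272161-193273217, minus strand) encodes the inhibitor that binds and blocks ATGL. It had the largest fasting change of the members in both genotypes. WT livers went from 37.6, 29.4 and 14.1 CPM to 197, 487 and 426 CPM, an increase of 3.77 ± 0.48 (adjusted p = 0.000147). The α7HMZ livers went from 21.5, 9.24 and 18.4 CPM to 254, 101 and 112 CPM, an increase of 3.25 ± 0.47 (adjusted p = 0.000598). Mice of 1 group differed by more than 2-fold in G0s2, so that the fasted genotypes overlapped and the difference of -1.25 ± 0.43 missed the threshold (adjusted p = 0.0642). It passed without WT fasted replicate 1 or without α7HMZ fasted replicate 1 (-1.80 to -1.55, adjusted p = 0.0164 to 0.031). The lipase and its inhibitor thus both rose with fasting in both genotypes.

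Mttp, at chr3:138089854-138144968 on the minus strand, encodes the microsomal transfer protein that loads triglyceride onto apolipoprotein B, a step every VLDL particle needs. WT livers were at 349, 315 and 327 CPM fed and 446, 417 and 332 CPM fasted, and the groups overlapped. The difference of 0.28 ± 0.13 did not pass (adjusted p = 0.129), though it did without WT fasted replicate 3 (0.39, adjusted p = 0.0324) and with offsets for GC content (0.36, adjusted p = 0.0398). In α7HMZ livers Mttp went from a tight 202, 199 and 198 CPM to 308, 359 and 288 CPM, a rise of 0.68 ± 0.13 (adjusted p = 0.00318). The responses were not shown to differ (0.40 ± 0.18, adjusted p = 0.321). Trmt10a, on the other strand, shares 7.36% of the Mttp exon bases. Its own level was 3.19 to 6.50 CPM over the 24 libraries.

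Cd36 (chr5:17781690-17888801, minus strand) encodes a fatty acid translocase that is low in normal hepatocytes and known to be induced in fatty liver. It read 19.6, 20.1 and 23.7 CPM in fed and 25.1, 16.1 and 11.4 CPM in fasted WT livers, and 45.2, 32.9 and 49.4 CPM in fed and 25.9, 91.2 and 74.4 CPM in fasted α7HMZ livers. Fed and fasted values overlapped in both genotypes, with changes of -0.26 ± 0.38 (adjusted p = 0.659) and 0.59 ± 0.36 (adjusted p = 0.329). The α7HMZ change passed without fasted replicate 1 (0.96, adjusted p = 0.0392).

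**Figure D2:**
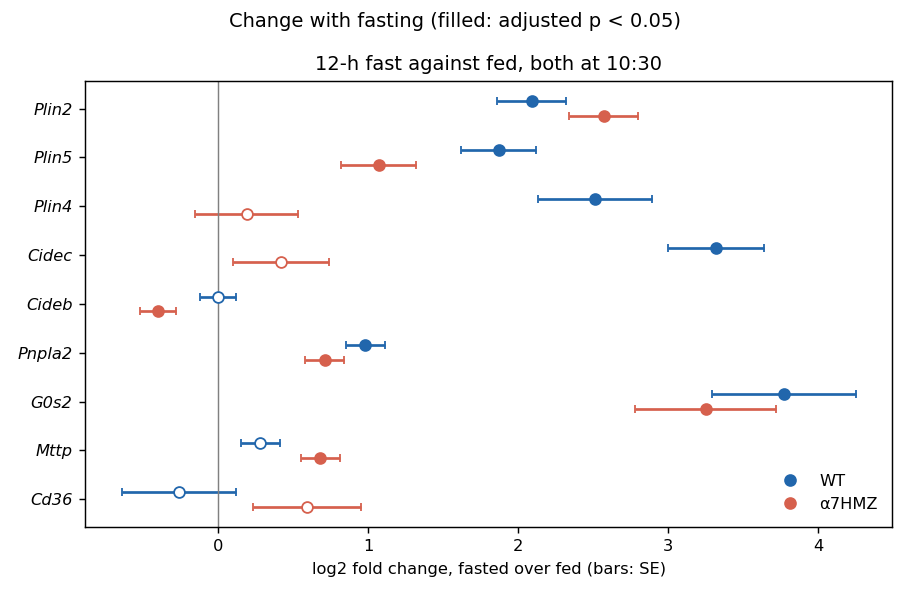
Log2 fold change of each tested member after a 12-h fast (horizontal axis; bars are SE) in WT (blue) and α7HMZ liver (red), filled where the adjusted p was under 0.05. Plin4 and Cidec are filled in WT (2.51 and 3.32) and open in α7HMZ liver (0.19 and 0.42), while Plin2, Plin5, Pnpla2 and G0s2 are filled in both.

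The comparison of genotypes asks how the same genes differ when only the P2 form is made. In fed liver, averaged over the 3 times, 2 of 9 members were higher in α7HMZ (Cd36 and Plin4) and 5 were lower (Cideb, G0s2, Cidec, Mttp and Pnpla2). Over all 13334 genes tested, 13.3% were higher and 13.2% lower. At 10:30, 3 members were higher and 2 lower (8.36% and 8.98% of all genes). At 13:30, 1 was higher and 3 lower (6.19% and 6.61%), and at 20:30, 1 was higher and 5 lower (8.29% and 10.8%). In fasted liver, 2 were higher and 2 lower (6.9% and 8.65%). The median over the 9 members was -0.39 in the fed average, beside 0.027 over all genes.

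Cideb differed the most. Across all 12 WT livers it ranged from 202 to 301 CPM and across all 12 α7HMZ livers from 42.2 to 67.6 CPM. The fitted differences were -1.98 ± 0.098 at 10:30 (adjusted p = 1.6e-10), -2.26 ± 0.098 at 13:30 (3.46e-11), -2.13 ± 0.098 at 20:30 (8.86e-11) and -2.40 ± 0.13 after fasting (6.45e-08). These values do not separate Cideb from its neighbour Nop9, which encodes a nucleolar RNA-binding protein, lies on the opposite strand, and shares 76.34% of the Cideb exon bases in GENCODE. The library preparation does not keep strand, and how reads within the shared bases were counted is not given in the sources used here. Nop9 ranged from 193 to 288 CPM in WT and 53.3 to 78.6 CPM in α7HMZ livers, with differences of -1.71 ± 0.10, -1.80 ± 0.10, -1.86 ± 0.10 and -2.05 ± 0.13 in the same order. The ratio of Cideb to Nop9 was 1.03 to 1.12 in WT and 0.754 to 0.946 in α7HMZ livers. Which of the 2 genes gives the difference was not tested.

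**Figure D3:**
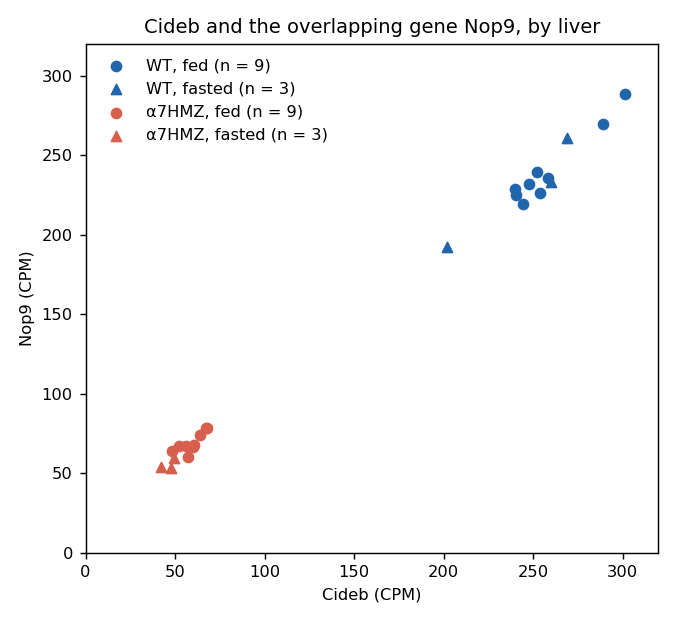
Level of Nop9 (vertical axis, CPM) against Cideb (horizontal axis, CPM) in each of the 24 livers, WT in blue and α7HMZ in red, circles fed and triangles fasted. The 2 genotypes form separate groups, and the 2 genes, which share exon bases on opposite strands, move together from liver to liver.

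Cd36 was higher in α7HMZ liver in each state. The fed WT groups read 19.6 to 23.7, 17.4 to 19.5 and 11.7 to 13.9 CPM at 10:30, 13:30 and 20:30. The α7HMZ groups read 32.9 to 49.4, 25.4 to 39.6 and 20.2 to 39.1 CPM. No α7HMZ liver overlapped WT at the same time, and the differences were 1.02 ± 0.20 (adjusted p = 0.00197), 0.77 ± 0.20 (0.0155) and 1.24 ± 0.21 (0.000511). The call at 13:30 was lost without replicate 1 of either genotype (0.57 to 0.73, adjusted p = 0.0707 to 0.111) and in a fit of all 24 libraries (0.139). In fasted livers the difference was 1.86 ± 0.38 (adjusted p = 0.00511), and the lowest α7HMZ value, 25.9 CPM, lay just above the highest WT value, 25.1 CPM. Macrophages and endothelial cells also express Cd36. Macrophage markers summed to 114 to 211 CPM in fasted WT livers and to 189, 211 and 943 CPM in fasted α7HMZ livers, where the corresponding Cd36 values were 25.9, 91.2 and 74.4 CPM. Without α7HMZ fasted replicate 3, the library at 943 CPM, the Cd36 difference was 1.71 (adjusted p = 0.0143). Of 10 macrophage markers, 6 were called higher in fasted α7HMZ than in fasted WT liver and 0 lower (median 1.48). Of 10 endothelial markers, 4 were called higher and 0 lower (median 0.6). Endothelial markers summed to 221 to 352 CPM in fasted WT and 376 to 439 CPM in fasted α7HMZ livers. In fed livers at 10:30, 13:30 and 20:30 that sum was 450.1 to 534, 394 to 434 and 338 to 391 CPM in WT and 336 to 429, 428 to 440 and 224 to 395 CPM in α7HMZ. The part of either cell type in the differences was not tested.

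Mttp was lower in fed α7HMZ liver, with a difference of -0.44 ± 0.051 in the fed average (adjusted p = 2.08e-06) and no overlap at any of the 3 times. At 10:30 the difference was -0.72 ± 0.088 (adjusted p = 1.64e-05). At 13:30, WT livers read 276, 254 and 253 CPM and α7HMZ livers 244, 216 and 211 CPM, a difference of -0.22 ± 0.087 that did not pass (adjusted p = 0.11). At 20:30 they read 379, 357 and 339 CPM and 265, 283 and 274 CPM, a difference of -0.39 ± 0.088 (adjusted p = 0.00497). With offsets for GC content that last difference was -0.11 (adjusted p = 0.419). The test of whether the difference varied with time, where hour and flow cell cannot be told apart, missed the threshold for Mttp (adjusted p = 0.052). It passed with upper quartile factors, GC content offsets or at least 50 counts in 3 libraries (adjusted p = 0.0312 to 0.0444). It also passed without WT replicate 1 at 20:30 or fed α7HMZ replicate 1 at 10:30 (adjusted p = 0.0324 to 0.0491). In fasted livers the difference of -0.33 ± 0.13 missed the threshold (adjusted p = 0.0914).

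Pnpla2 was lower in α7HMZ liver at 13:30 and 20:30. At 13:30, WT livers held 95.6, 112 and 107 CPM and α7HMZ livers 74.0, 69.5 and 71.9 CPM (-0.55 ± 0.13, adjusted p = 0.0109). At 20:30 they held 112, 69.6 and 108 CPM and 58.0, 52.2 and 54.9 CPM (-0.81 ± 0.14, adjusted p = 0.000445). At 10:30 the α7HMZ mean was the higher, by 0.19 ± 0.14 (adjusted p = 0.372). The difference between genotypes varied with time for Pnpla2 (F = 14.5, adjusted p = 0.0197), in a test where hour and flow cell cannot be told apart. That call was lost without WT fed replicate 1 or 2 or α7HMZ fed replicate 2 at 10:30 (adjusted p = 0.0514 to 0.0643).

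G0s2 was lower in fed α7HMZ liver by -1.20 ± 0.28 in the average (adjusted p = 0.0036). WT livers read 98.7, 42.8 and 70.9 CPM at 13:30 and 204, 155 and 54.2 CPM at 20:30, and α7HMZ livers 44.6, 18.5 and 25.5 CPM and 28.2, 73.3 and 34.9 CPM. These overlap within each time. The difference passed at 20:30 alone (-1.61 ± 0.48, adjusted p = 0.0268), but with offsets for GC content it was -1.40 (adjusted p = 0.067). Leaving out any of 4 of the 6 libraries at 20:30 also lost the call (-1.52 to -1.20, adjusted p = 0.061 to 0.119). Without the 4 fed libraries rich in Rn45s, Krt19 or Ctrb1 the difference was -0.82, with a lone α7HMZ mouse left at 20:30.

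Cidec was also lower in α7HMZ liver at 13:30 and 20:30. WT livers read 5.64, 3.61 and 3.61 CPM and then 8.62, 3.08 and 4.38 CPM, and α7HMZ livers 2.25, 1.78 and 2.01 CPM and then 2.82, 2.06 and 1.86 CPM. No values overlapped at either time, with differences of -1.08 ± 0.33 (adjusted p = 0.038) and -1.29 ± 0.34 (adjusted p = 0.0128). Both rest on few counts. At 13:30 the call was lost without any of 5 of the 6 libraries (-1.20 to -0.83, adjusted p = 0.0543 to 0.197). At 20:30 it was lost without WT replicate 1 or α7HMZ replicate 3 (-1.17 to -0.74, adjusted p = 0.0523 to 0.133). The fed average, -0.59 ± 0.21 (adjusted p = 0.0451), lost its call when any of 10 libraries was left out. At 10:30 the difference was 0.61 ± 0.41 (adjusted p = 0.34).

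The perilipins went the other way at 10:30. Plin4 was higher in fed α7HMZ liver at that time by 2.16 ± 0.33 (adjusted p = 0.000172), with every α7HMZ liver above 13 CPM and every WT liver below 5. At 13:30, Plin4 read 11.3, 6.35 and 6.76 CPM in WT and 9.08, 4.18 and 4.25 CPM in α7HMZ livers, and at 20:30 11.9, 9.23 and 7.80 CPM and 8.62, 13.6 and 13.4 CPM. These later groups overlapped (-0.46 ± 0.31 and 0.28 ± 0.31, adjusted p = 0.401 and 0.57). The difference between genotypes varied with time for Plin4 (F = 17.5, adjusted p = 0.0157), in a test where hour and flow cell cannot be told apart. Plin4 and Pnpla2 were the 2 of 9 members called in that test, which called 4.99% of all genes. Plin5 was higher in α7HMZ liver at 10:30 (0.93 ± 0.21, adjusted p = 0.00429), again without overlap. It was not at 13:30 (0.11 ± 0.20, adjusted p = 0.804) or 20:30 (-0.21 ± 0.20, adjusted p = 0.508), and the test over time missed the threshold (adjusted p = 0.052). That test passed with no filter on low counts or at least 50 counts in 3 libraries (adjusted p = 0.0406 to 0.0483). It also passed without WT replicate 1 at 13:30, WT replicate 2 at 20:30 or fed α7HMZ replicate 1 at 10:30 (adjusted p = 0.011 to 0.0499). For Plin2 the 10:30 groups did not overlap, but the difference of 0.66 ± 0.24 missed the threshold (adjusted p = 0.0652). It passed under 4 other settings (0.66 to 0.80, adjusted p = 0.00697 to 0.0405).

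**Figure D4:**
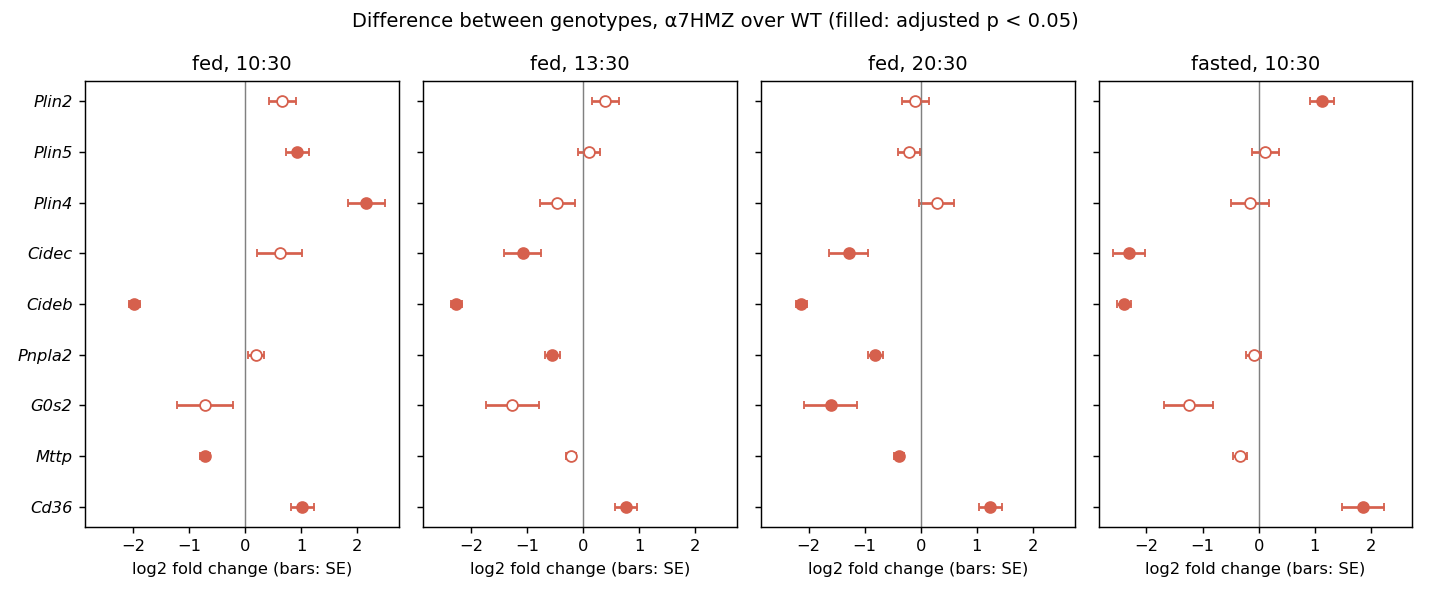
Log2 fold change of α7HMZ over WT liver (horizontal axis; bars are SE) for each tested member in fed liver at 10:30, 13:30 and 20:30 and in fasted liver at 10:30, filled where the adjusted p was under 0.05. Cideb lies between -2.40 and -1.98 and Cd36 between 0.77 and 1.86 in all 4 panels, Plin4 is high at 10:30 only (2.16), and Plin2 is filled in the fasted panel only (1.13).

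The shift from 13:30, in the light, to 20:30, in the dark when mice eat, was compared within a genotype. In WT liver 2 of 9 members were higher at 20:30 (11.6% of all genes higher, 9.97% lower). They were Plin5, which went from 40.4, 58.7 and 56.9 CPM to 135, 100.5 and 118 CPM (1.19 ± 0.20, adjusted p = 0.00104), and Mttp (0.47 ± 0.088, adjusted p = 0.00177). G0s2 was 0.97 ± 0.47 higher, which did not pass (adjusted p = 0.149). In α7HMZ liver Plin5 alone was called, from 70.1, 47.9 and 50.5 CPM to 109.2, 111 and 87.0 CPM (0.87 ± 0.20, adjusted p = 0.0165; 3.16% of all genes higher, 2.05% lower). That call was lost without any of 4 libraries (0.76 to 0.82, adjusted p = 0.0524 to 0.106). No member was lower at 20:30 by edgeR in either genotype. At an unadjusted p under 0.05, 1 was lower in each (Cd36 in WT, Pnpla2 in α7HMZ), and DESeq2 called 1 in WT and 0 in α7HMZ liver.

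Other genes of the same processes were counted from lists, without the members. The counts stand beside these shares of all genes tested. With fasting, 12.0% were higher and 10.6% lower in WT liver, and 6.68% and 5.9% in α7HMZ liver. By genotype, 13.3% were higher and 13.2% lower in the fed average, and 6.9% and 8.65% in fasted liver. The test of genotype by fasting called 0.16% higher and 0.0916% lower. Of 16 tested genes of droplet coat and size, fasting in WT liver raised 5 and lowered 3 (median -0.08, beside 0.004 over all genes). The 2 with the smallest p were Hsd17b13 (0.95 ± 0.14, adjusted p = 0.000379) and Hsd17b11 (1.08 ± 0.16, adjusted p = 0.000462), which encode droplet-bound dehydrogenases. In α7HMZ liver 3 rose (5 with DESeq2, with no filter on low counts, with all 24 libraries in 1 fit or with the replicate block), among them Hsd17b11 (1.24 ± 0.16) but not Hsd17b13 (0.24 ± 0.14, adjusted p = 0.286), and 0 fell by edgeR, by DESeq2 or at an unadjusted p under 0.05. In fed liver 1 of these genes was higher and 2 were lower in α7HMZ: Spg20 (0.37 ± 0.064), Hsd17b13 (-0.33 ± 0.066) and Fitm1, a gene of droplet budding (-0.97 ± 0.15, adjusted p = 6.93e-05).

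Of 18 lipolysis genes, WT fasting raised 3 and lowered 7 (median -0.11), and fasting in α7HMZ liver raised 3 and lowered 4 (median -0.17). Mgll, the monoglyceride lipase, rose in both (1.35 ± 0.18 and 1.14 ± 0.18), and the carboxylesterase gene Ces1g fell in both (-1.25 ± 0.19 and -0.94 ± 0.19). In fed liver 1 was higher in α7HMZ, Lpl (1.92 ± 0.13, adjusted p = 2.93e-09), and 8 were lower (median -0.27), among them the hepatic lipase gene Lipc (-0.54 ± 0.08).

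VLDL assembly and secretion had 11 of its 21 genes lower and 2 higher in fed α7HMZ liver, with a median of -0.24 beside 0.027 over all genes. Apoa4, an apolipoprotein of triglyceride-rich particles, differed from WT by -3.96 ± 0.21 (adjusted p = 6.41e-11) and Apoc3, an inhibitor of their clearance, by -1.93 ± 0.12 (adjusted p = 1.04e-09). In fasted liver 7 were lower and 1 higher (median -0.35). Fasting raised 3 and lowered 3 in WT liver (median -0.05) and raised 1 and lowered 2 in α7HMZ liver (median 0.03). Apoa4, as Cidec, was called with fasting in WT liver, not in α7HMZ liver, and in the difference of response. Its mean went from 109 to 959 CPM in WT liver (3.14 ± 0.27, adjusted p = 1.02e-05) and from 10.2 to 10.5 CPM in α7HMZ liver (0.03 ± 0.28, adjusted p = 0.962), with a difference in response of -3.11 ± 0.38 (adjusted p = 0.00963). Creb3l3, a fasting factor of the liver, rose in both genotypes (0.95 ± 0.12 and 0.74 ± 0.12).

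Of 16 genes of fatty acid uptake and activation, WT fasting raised 5 and lowered 4 (median -0.05), and fasting in α7HMZ liver raised 4 and lowered 2 (median 0.05). The transporter gene Slc27a1 was higher in fed α7HMZ liver (1.55 ± 0.089, adjusted p = 2.01e-10), as Cd36 was, while Slc27a5, the liver's bile acid and fatty acid ligase, was lower (-1.09 ± 0.059). Both Slc27a1 (1.92 ± 0.13 and 2.48 ± 0.12) and Slc27a2 (1.18 ± 0.13 and 1.25 ± 0.13) rose with fasting in WT and α7HMZ liver. In fed liver 3 of the list were higher and 6 lower in α7HMZ (median -0.01).

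Fasting and PPARα targets responded in both genotypes. Of 20 tested, 16 rose with fasting in WT liver (median 1.07) and 16 in α7HMZ liver (median 1.12), and 0 fell in either by edgeR, by DESeq2 or at an unadjusted p under 0.05. Cyp4a10, an ω-hydroxylase of fatty acids, rose by 4.66 ± 0.23 and 4.62 ± 0.23. Its relative Cyp4a14 rose by 6.07 ± 0.36 in WT and 3.55 ± 0.32 in α7HMZ liver, where it was already higher in the fed state (2.26 ± 0.22 in the fed average). Cyp4a14 was the 1 gene of this list that edgeR called in the test of genotype by fasting (-2.51 ± 0.41, adjusted p = 0.0295), lower as Cidec was. In that test, which involves both flow cells, 0 were called higher by edgeR and 2 by DESeq2. No Cidec or Plin4 response was called in the same α7HMZ livers, and the cause was not tested. In fed liver 6 of the 20 were higher and 5 lower in α7HMZ (median 0.02), among the lower the desaturase gene Fads2 (-0.87 ± 0.09), and in fasted liver 5 were higher and 3 lower (median 0.08), against 8 and 1 with offsets for GC content.

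Of 13 PPARγ targets of fatty liver, 8 passed the filter on low counts. Fasting raised 1 and lowered 3 in WT liver (median -0.12) and raised 1 and lowered 2 in α7HMZ liver (median -0.42). Those lowered included the stearoyl desaturase gene Scd1 (-2.55 ± 0.18 and -2.00 ± 0.18) and, in WT, Scd2 (-2.19 ± 0.29). In fed liver 1 was higher in α7HMZ, Lpl, and 3 were lower, with Scd1 at -1.80 ± 0.16 (median -0.28).

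Of the transcription factors of lipid metabolism, 21 tested with fasting, 3 rose and 2 fell in WT liver (median 0.05) and 4 rose and 1 fell in α7HMZ liver (median -0.03). Srebf1, the lipogenic factor, fell in both (-1.25 ± 0.15 and -1.55 ± 0.15). Nr1i3, the xenobiotic receptor CAR, rose in both (1.55 ± 0.19 and 1.30 ± 0.22) but was far lower in fed α7HMZ liver (-3.72 ± 0.12, adjusted p = 7.39e-14), where Nr1h3, the oxysterol receptor LXRα, was also lower (-0.48 ± 0.063). In fed liver 2 of 22 were higher and 4 lower (median -0.01).

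Likeness over the 24 libraries was measured as Pearson's r of log2(CPM + 0.5), and the 2 genes closest to each member are given for 8 of the 9 tested. The points share their groups, so these values describe the pattern over feeding and genotype. Closest to Plin2 were Ptplad1 (r = 0.959) and Ehhadh (0.957), a peroxisomal β-oxidation gene, and closest to Plin5 were Mrap (0.911) and Cpt2 (0.909), a mitochondrial β-oxidation gene. Cidec was closest to Cgref1 (0.902) and Cpt1a (0.882), the gate of fatty acids into mitochondria, and G0s2 to Chrna2 (0.892) and Slc27a2 (0.886). Pnpla2 was closest to Adrm1 (0.878) and Pabpc4 (0.871), Plin4 to Med8 (0.821) and Ube2d2a (0.808), and Cd36 to Vldlr (0.879), a lipoprotein receptor, and Ermp1 (0.848). For Cideb they were Nop9 (0.998), the gene it overlaps, and BC089597 (0.995).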

How the data were processed

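Liver poly(A) RNA of 24 mice was sequenced as 75-bp single reads from libraries that do not mark strand. Per the labels and the study's methods, the authors aligned reads to mm10 with TopHat2 2.1.1, kept unique alignments and counted them per gene with HTSeq 0.6.1; the deposited values used here are those raw counts. The FPKM files were not used. Groups were taken from the sample labels, and p-values measure the spread between mice. Counts were tested with edgeR 4.0.16 in R 4.3.3 (filterByExpr, TMM, glmQLFit, glmQLFTest; Benjamini-Hochberg, 0.05), in 1 fit of the 12 libraries at 10:30 and 1 of the 18 fed libraries; SE was taken from the F statistic. The fits were tested on simulated data. Depth was 8545959 to 28445590 counts; intervals and limits at a count of 0 cover counting error only. Symbols were matched to GENCODE for coordinates. Replicate numbers did not pair the mice: in 0 of 28 pairs of groups was every correlation of same-numbered mice above 0.1 (-0.327 to 0.338). Every member was named in every comparison, with the 2 non-members of smallest p per list for WT fasting and the fed average, 2 genes most like each member, and Hnf4a; the genes most like Mttp are not reported here. Members and lists were chosen with earlier results of these data known. Alternatives were other scaling factors (relative log expression, upper quartile), GC content offsets, DESeq2 1.42.0, other filters (none, or at least 50 counts in 3 libraries), other sets of libraries, a replicate block, leaving out Rn45s and each library.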

Additional observations from a re-analysis of the deposited data

Results flagged for a closer look

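The fasting response of Cidec differed between genotypes by -2.90 (edgeR, adjusted p = 0.0255): its mean went from 1.32 to 12.8 CPM in WT and from 1.98 to 2.57 CPM in α7HMZ liver, and all 3 fasted WT livers were above all 3 fasted α7HMZ livers. Flow cell and group cannot be told apart in that test. The difference between genotypes in fed liver varied with time for Plin4 (F = 17.5, adjusted p = 0.0157), which was 2.16 higher in α7HMZ liver on the log2 scale at 10:30 and differed by -0.46 at 13:30 and 0.28 at 20:30. It also varied for Pnpla2 (F = 14.5, adjusted p = 0.0197), at 0.19, -0.55 and -0.81 in the same order. The 10:30 libraries ran on flow cell 375 and the later ones on 377, so in both tests of time the flow cell cannot be told apart from the hour.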

How the results depend on the processing

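Of 1917 values of single members under other settings, 1807 stayed on the same side of the threshold, 54 lost a call and 56 gained one. Of the values called in the main or the other fit, 0 reversed. Values called in neither fit could change direction and still count among the 1807, and the tests of genotype by time have no direction. The number of members called stayed within 1.5 times for fasting in both genotypes, for genotype in fasted liver, in the fed average and at 10:30. For genotype by fasting it was 1, and 2 with DESeq2, with no filter on low counts or with all 24 libraries in 1 fit, and 0 to 2 with a library left out. At 13:30 it was 4, and 2 to 4 with a library left out. At 20:30 it was 6, and 3 without the 4 fed libraries rich in Rn45s, Krt19 or Ctrb1, a setting chosen after seeing the data. It leaves 2 WT mice and 1 α7HMZ mouse at 20:30, the lone mouse being assumed to vary like the other fed groups. For genotype by time it was 2, and 4 with at least 50 counts in 3 libraries or without those 4 libraries, and 1 to 4 with a library left out. For 20:30 against 13:30 it was 2 in WT liver, and 4 with DESeq2. In α7HMZ liver it was 1, and 2 with relative log expression factors, upper quartile factors, GC content offsets, no filter or at least 50 counts in 3 libraries, 4 with DESeq2, and 0 to 3 with a library left out. The replicate block, whose numbers do not pair the mice, gave 3 there and moved no other count of members by over 1.5 times. With GC content offsets the VLDL list had 7 genes lower in fed α7HMZ liver in place of 11, the lipolysis list 3 in place of 8, the uptake list 7 higher in place of 3, and the PPARα list 10 higher and 2 lower in place of 6 and 5. With the same offsets, in fasted liver the PPARα list had 8 higher and 1 lower in place of 5 and 3. The droplet list had 5 genes higher with fasting in α7HMZ liver in place of 3 with DESeq2, no filter, all 24 libraries in 1 fit or the replicate block, and 4 lower in fed α7HMZ liver in place of 2 with DESeq2 or without those 4 libraries. With GC content offsets the lipolysis list had 5 higher with fasting in α7HMZ liver in place of 3, and the transcription factors 5 higher in fed α7HMZ liver in place of 2. Other list counts of 1 or 2 genes in the report also moved by over 1.5 times. The cause of these changes was not tested. Cidec and Plin4 rest on as few as 19 and 50 counts in a library, so small differences in them were not detectable at this depth.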
